A study of Mus musculus with 10 samples.

Results

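Genes of the matrix metalloproteinases (MMPs), their tissue inhibitors (TIMPs) and the ADAM, ADAMTS and ADAMTS-like families were followed in the mouse aorta with and without Ptgds, which encodes the lipocalin type of prostaglandin D synthase (L-PGDS). Members were all genes whose symbol begins with Mmp, Timp, Adam, Adamts or Adamtsl and a number and that have a probe set with that single symbol on the array, with the brightest probe set standing for the gene. This gave 70 of the 18193 genes named on the array: 18 MMP, 4 TIMP, 28 ADAM, 15 ADAMTS and 5 ADAMTS-like genes. Total RNA came from the aorta of male C57BL/6 mice fed chow under a 12 hour light and 12 hour dark cycle. The groups were wild type mice (5 samples, of which replicate 2 has no values and was excluded by the submitters, leaving 4) and mice with the genotype Ptgds-/- (5 samples). The labels call the samples biological replicates and give no age, litter or pooling, and no treatment beyond the housing that all animals shared.

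MMPs are zinc proteases made as inactive precursors that cut collagens, elastin, laminins and other matrix proteins once activated. TIMPs block them at the active site. ADAMs are membrane-bound relatives, several of which release growth factors, cytokine receptors and adhesion proteins from the cell surface, while others have lost protease activity and act in adhesion or fertilisation. ADAMTS enzymes are secreted and bind the matrix, where they process procollagen, cut the large proteoglycans aggrecan and versican, or work on fibrillin microfibrils, and the ADAMTS-like proteins share their binding domains but have no protease domain. In the aorta these genes are known for their part in turnover of the elastic wall, in aneurysm and in atherosclerosis.

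All values are log2 GCRMA values, and a value of 4 was taken as the floor below which a probe set was not read as a level. Smooth muscle markers lay over the floor on every array in 10 of 10 genes, with the myosin gene Myh11 between 13.67 and 13.89. Ptgds lay between 8.68 and 10.31 on the wild type arrays, between 3.67 and 3.92 on 4 knockout arrays, and close to the floor on knockout replicate 5. The mean correlation of an array with the others was 0.989 to 0.992 for 8 arrays and 0.981 for wild type replicate 3, which also had the highest neuron markers (a mean log2 value of 10.53 over 15 genes, against 8.76 on knockout replicate 1, 7.21 on wild type replicate 4 and 4.66 to 5.55 on the others). Skeletal muscle markers stood at a mean of 9.08 on knockout replicate 3 and at 4.07 to 4.57 elsewhere.

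None of the family's genes differed between the genotypes past an adjusted p of 0.05 over all genes. Of the 70 members, 45 lay over the floor on at least 4 arrays and were tested, and 0 passed in limma, where 8 of all 14321 tested genes did (0.0559%). The smallest adjusted p among the members was 0.110, shared by Adamts5 and Adamts9. At an unadjusted p under 0.05 there were 10 members, 22.2% of those tested, against 19.9% of all tested genes. Higher in the knockout among them were Adamts5, Adamts10, Adamts8, Mmp11, Mmp17, Mmp23, Adam33 and Adam19, and lower were Adamts9 and Adamtsl2, that is 8 higher and 2 lower, where 12.8% of all tested genes were higher and 7.12% lower at this p. The groups did not overlap in 3 members (Adamts5, Adamts9 and Mmp23), 6.67% against 6.76% of all tested genes. Over the 45 members 26 changes were above 0 and 19 below, with a median of 0.019 (log2, knockout minus wild type) against 0.027 over all tested genes. Exact two-sided permutation over the arrays gave the smallest p that 4 against 5 arrays allow, 0.0079, in these 3 genes, which their separation fixes. Among the other 7 genes at this p it gave 0.0159 for Adamts10 and Adam33, 0.0238 for Adamtsl2 and 0.0317 for Mmp11, but 0.0635 for Adam19 and Mmp17 and 0.0714 for Adamts8, which are over 0.05. For Timp3, with a limma p of 0.077, it gave 0.0317. These p-values are not adjusted. The shares above lie near those of all genes, so the counts show nothing beyond the background.

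**Figure D1:**
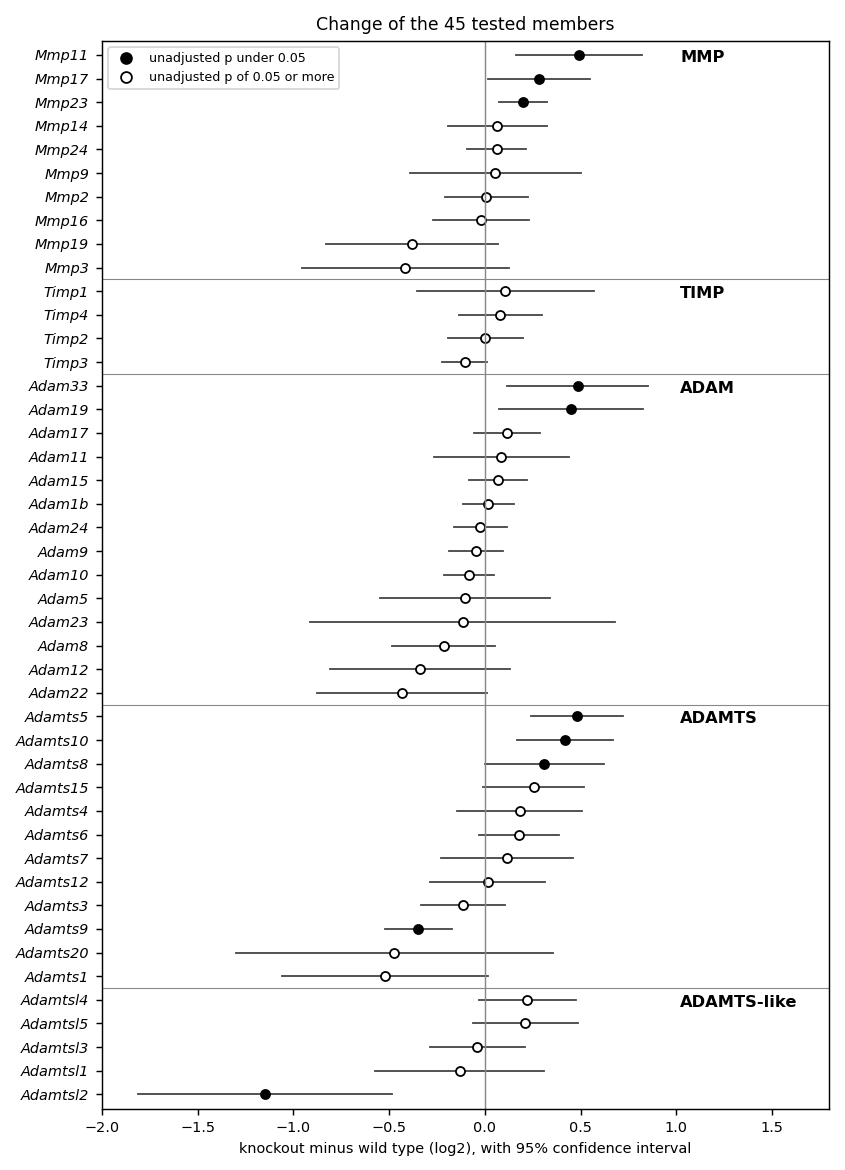
Log2 difference, knockout minus wild type, of each tested member (x axis), by family and then by size (y axis), with the 95% confidence interval of the limma fit; filled points have an unadjusted p under 0.05 (4 wild type and 5 knockout arrays). Most points lie within 0.5 of 0, Adamtsl2 lies farthest to the left at −1.15, and the filled points are 8 to the right and 2 to the left.

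Depending on 1 array, several of these genes crossed the threshold. Without wild type replicate 1, 5 of the 45 members passed in limma: Adamts10 (0.52, adjusted p 0.018), Mmp11 (0.64, adjusted p 0.015), Adamts5 (0.54, adjusted p 0.031), Adamts9 (−0.38, adjusted p 0.033) and Adamtsl2 (−1.31, adjusted p 0.044). In that fit 1051 of all 14321 genes passed (7.34%). Leaving out any other single array left 0 members past the threshold. On wild type replicate 1, Adamts5, Adamts10, Mmp11, Mmp17, Mmp23 and Adam33 each had the highest wild type value, and Adamts9 and Adamtsl2 the lowest, so among the wild type arrays this one lay nearest to the knockout values in 8 of the 10 genes with the smallest p. The next wild type array was close in Adamts5 (9.63 against 9.62), Mmp23 (12.87 against 12.86) and Adamts9 (11.14 against 11.17). The 10 genes were picked by their p in these data. The same count over all tested genes was not made, so it is no trait of the members.

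**Figure D2:**
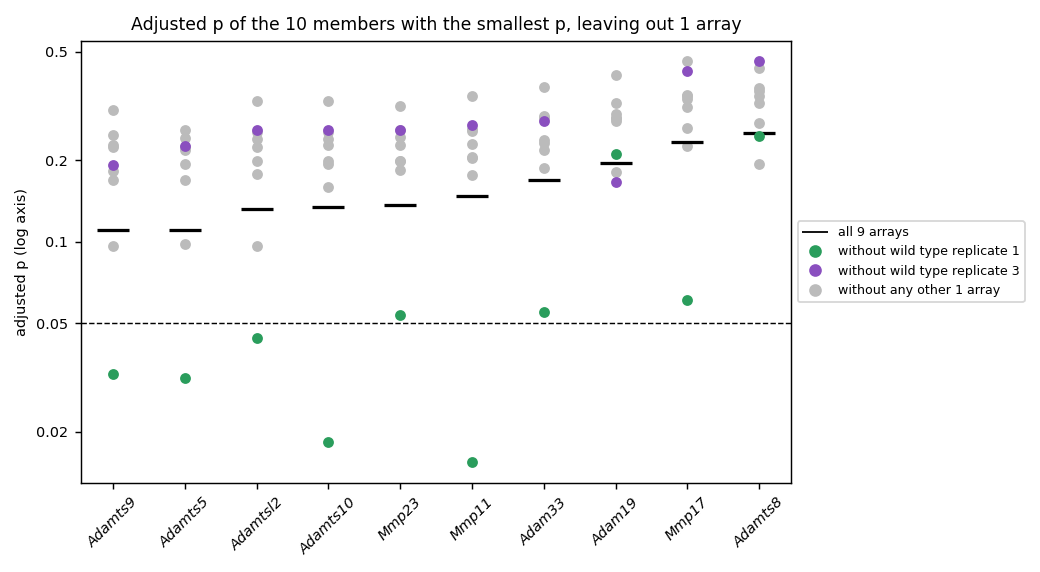
Adjusted p (limma, Benjamini-Hochberg over all genes; y axis, log scale) of the 10 members with the smallest p (x axis), with all 9 arrays (black bar) and without 1 array at a time (points). Green points, without wild type replicate 1, lie under the dashed line of 0.05 for Adamts9, Adamts5, Adamtsl2, Adamts10 and Mmp11, and no other point does.

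Among the MMPs, 10 of 18 genes were over the floor on all arrays, and the other 8 were under it on all 9. The gelatinase gene Mmp2, whose enzyme cuts denatured collagen and type IV collagen, stood at 12.16, 12.09, 11.95 and 12.37 on wild type replicates 1, 3, 4 and 5 and at 12.10, 12.10, 12.33, 12.02 and 12.19 on knockout replicates 1 to 5. The groups overlapped throughout: the change was 0.0088 (log2, SE 0.096, 95% confidence interval −0.21 to 0.23, adjusted p 0.969, limma), and its direction turned under several alternatives. Mmp14, the membrane-anchored activator of the Mmp2 precursor, had means of 7.11 ± 0.16 in wild type and 7.18 ± 0.20 in knockout aortas (SD, n = 4 and 5), a change of 0.066 (SE 0.11, adjusted p 0.778, limma). Its 3 probe sets did not move one way, at 0.066, 0.31 and −0.070. Mmp9, the second gelatinase and a product of macrophages and neutrophils, stood at 5.83, 5.80, 5.55 and 6.63 on the wild type arrays and between 5.85 and 6.24 on the knockout arrays. Wild type replicate 5 was the high one. It also had the highest mean of the 13 macrophage markers (8.87, against 7.91 to 8.51 on the other wild type and 8.06 to 8.24 on the knockout arrays). The means of fibroblast (12.42), endothelial (9.37) and mast cell markers (6.28) were highest there too, so this was not particular to macrophages. Neutrophil markers had a summed level (log2 of the summed linear values) of 8.92 on that array. They stood at 8.89 on knockout replicates 3 and 5, where Mmp9 was at 5.85 and 6.24. The part of these cell types in the Mmp9 value was not tested. The change of Mmp9 was 0.055 (SE 0.20, adjusted p 0.902, limma) with all arrays and 0.28 (adjusted p 0.348) without wild type replicate 5. Its other tested probe set did not share this pattern. There wild type replicates 3 and 5 both stood at 5.34, knockout replicate 5 was highest at 5.45, and the change was −0.10 (SE 0.16).

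The MMPs with an unadjusted p under 0.05 were all higher in the knockout. Mmp23, which encodes a membrane-anchored MMP with an unusual cysteine-rich tail, stood at 12.87, 12.67, 12.79 and 12.86 on wild type replicates 1, 3, 4 and 5 and at 12.96, 13.01, 13.00, 13.02 and 13.02 on the knockout arrays. All knockout values lay above all wild type values, but by little: the change was 0.20 (SE 0.056, 1.15-fold, adjusted p 0.137, limma). Its other probe set moved the same way, by 0.17 (SE 0.086). Mmp11, stromelysin-3, which is activated inside the cell by furin, stood at 7.82, 7.04, 7.38 and 7.25 in wild type and at 7.80, 7.82, 7.89, 7.76 and 8.07 in knockout aortas. Wild type replicate 1 alone reached the knockout range, and the change was 0.49 (SE 0.15, 1.41-fold, adjusted p 0.148, limma). Fitted with adipocyte markers (the mean of 10 genes) as a covariate, it was 0.33 (SE 0.15, adjusted p 0.523, limma). The smallest adjusted p of any member in that fit was 0.490 (limma). Mmp17, a membrane-type MMP held by a lipid anchor, had means of 8.80 ± 0.24 and 9.09 ± 0.14 (SD, n = 4 and 5), a change of 0.28 (SE 0.12, adjusted p 0.232, limma). Mmp3, stromelysin-1, stood at 8.83, 8.05, 8.53 and 8.92 in wild type and at 8.42, 7.86, 8.52, 7.60 and 8.42 in knockout aortas, with overlapping groups and a change of −0.42 (SE 0.24, adjusted p 0.362, limma). Leaving out knockout replicate 4 gave −0.27, and leaving out wild type replicate 3 gave −0.59. Of the other tested MMPs, Mmp19 stood at −0.38 (SE 0.20), and the membrane-type genes Mmp16 and Mmp24 at −0.019 (SE 0.11) and 0.062 (SE 0.068).

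The 8 MMP genes under the floor are neighbours of Mmp3. In the gene order of GRCm38.p6, 9 of the members lie in a row on chromosome 9, in the order Mmp13, Mmp12, Mmp1b, Mmp3, Mmp1a, Mmp10, Mmp8, Mmp20 and Mmp7, with 4 further genes among them, 1 of which is an MMP gene that is not a member here (Mmp27). Of these 9, Mmp3 was over the floor on all arrays (7.60 to 8.92), and the other 8 lay between 2.02 and 3.89 on every array. They include the collagenases Mmp1a, Mmp8 and Mmp13, the gene Mmp1b, stromelysin-2 (Mmp10), matrilysin (Mmp7), enamelysin (Mmp20) and the macrophage elastase Mmp12. Mmp12 stood at 2.90, 2.96, 2.27 and 2.84 on the wild type and at 2.27, 2.48, 2.51, 2.51 and 2.51 on the knockout arrays, while 12 of 13 macrophage markers were over the floor on all arrays. Such values near the lower end of the scale do not show that a gene is silent, since a weak probe set gives the same reading.

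The promoters of this row of genes share letters that most other promoters lack. The RefSeq promoter table (GRCm38.p6) holds 41 of the 70 members, all 9 of the chromosome 9 genes included. In the 250 bases before an annotated start, 7 of these 9 genes have TGACTCA or TGAGTCA, the consensus of the AP-1 factors Fos and Jun, read on both strands since each is the reverse complement of the other. Of the other 32 members with a window 1 has it (Adam19), and 5.16% of all 27025 listed genes do, or 4.46% of the 32851 windows. A TATAA, read on the gene's strand within 60 bases of the start, is in 7 of the 9, in 4 of the 32 and in 6.62% of all genes (5.57% of windows). The G and C content had a median of 40.4% in the row and 63.2% in the other members. Mmp3, with a level, and Mmp12, Mmp1a, Mmp1b, Mmp10, Mmp13 and Mmp7, without one, all hold the AP-1 letters, so the letters are found on both sides of the floor. To show this, the last 110 bases before the start are printed 5′ to 3′ for 5 of them, with the AP-1 letters and the TATAA in capitals, at chr9:7445712-7445821 (plus strand), chr9:7464031-7464140 (plus strand), chr9:7502232-7502341 (plus strand), chr9:7272404-7272513 (plus strand) and chr9:7691980-7692089 (plus strand).
Mmp3: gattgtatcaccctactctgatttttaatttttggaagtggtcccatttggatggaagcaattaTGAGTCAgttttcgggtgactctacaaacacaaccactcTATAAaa
Mmp1a: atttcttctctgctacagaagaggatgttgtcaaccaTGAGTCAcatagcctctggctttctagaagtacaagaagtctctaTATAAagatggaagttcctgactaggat
Mmp10: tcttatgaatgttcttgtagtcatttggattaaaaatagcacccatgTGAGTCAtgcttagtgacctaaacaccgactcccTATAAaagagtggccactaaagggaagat
Mmp13: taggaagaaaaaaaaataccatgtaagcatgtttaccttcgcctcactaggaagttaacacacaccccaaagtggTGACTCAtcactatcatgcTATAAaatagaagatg
Mmp7: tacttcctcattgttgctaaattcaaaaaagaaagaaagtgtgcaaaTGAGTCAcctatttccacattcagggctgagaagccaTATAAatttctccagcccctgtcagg
Counted back from the annotated start, the AP-1 letters begin at −46 in Mmp3, −73 in Mmp1a, −63 in Mmp10 and Mmp7 and −35 in Mmp13, and in each they lie before the TATAA. A match is a description of the letters, and binding was not measured.

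**Figure D3:**
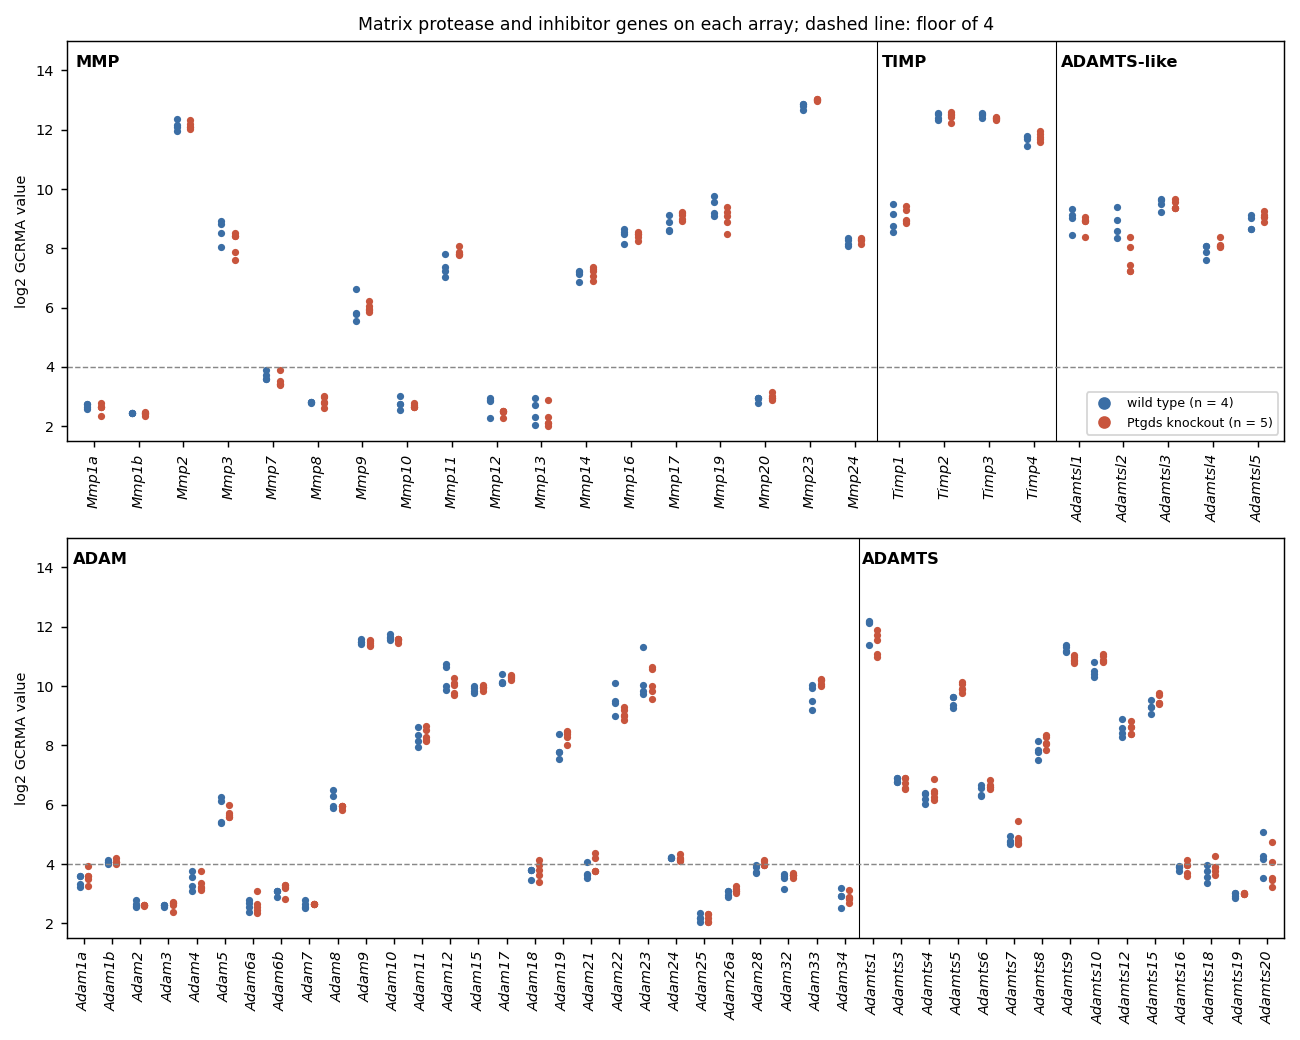
Log2 GCRMA value (y axis) of all 70 members on each of the 4 wild type (blue) and 5 knockout (red) arrays, by family and gene number (x axis); the dashed line is the floor of 4, and heights of different probe sets are not comparable as amounts of RNA. The 8 MMP genes next to Mmp3 on chromosome 9 lie under the line on every array, 14 untested ADAM genes lie under it on most arrays, while all 4 TIMP and all 5 ADAMTS-like genes lie over it.

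All 4 inhibitor genes were over the floor, and none had an unadjusted p under 0.05. Timp2, which also helps Mmp14 to activate the Mmp2 precursor, stood at 12.54, 12.39, 12.34 and 12.56 in wild type and at 12.54, 12.51, 12.60, 12.23 and 12.43 in knockout aortas. Its change was 0.0028 (SE 0.087, 95% confidence interval −0.19 to 0.20, adjusted p 0.989, limma), of a sign that turned under many alternatives. Of the 6 tested probe sets of Timp2, 2 were higher and 4 lower, with changes from −0.37 to 0.0065. Timp3, which stays bound to the matrix and also blocks ADAM17 and the aggrecanases, stood at 12.52, 12.41, 12.48 and 12.56 and at 12.41, 12.33, 12.43, 12.40 and 12.35. The groups overlapped slightly, at a change of −0.10 (SE 0.052, 1.07-fold lower, adjusted p 0.301, limma). Its 4 probe sets were all lower, by −0.087 to −0.33. Timp4 stood at 11.68 ± 0.15 and 11.76 ± 0.14 (SD, n = 4 and 5), a change of 0.081 (SE 0.096, adjusted p 0.664, limma), which was 0.0094 without wild type replicate 1. Timp1, which is induced by cytokines and injury, stood at 9.16, 8.54, 8.74 and 9.50 and at 8.93, 8.84, 9.42, 8.96 and 9.30, so the wild type arrays alone covered the whole knockout range. Its change was 0.11 (SE 0.20, adjusted p 0.801, limma), and it turned to −0.044 without wild type replicate 3.

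About as many ADAM genes lay over the floor as under it. Of 28 members 14 were tested, and among the 14 that were not, 11 were under the floor on all arrays and 3 (Adam18, Adam21 and Adam28) were over it on at most 3. Most of the 14 are known from sperm and the male genital tract, such as Adam2, which lay between 2.54 and 2.77 and whose protein acts in sperm and egg binding, Adam3 (2.38 to 2.72) and the epididymal gene Adam7 (2.53 to 2.79). Adam24 and Adam1b passed the filter only just, at means of 4.20 and 4.07 over all arrays. At such levels a change is not exact.

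The main sheddase genes lay close together in the genotypes. Adam10, which cuts Notch receptors and cadherins, stood at 11.66, 11.61, 11.55 and 11.74 in wild type and at 11.57, 11.46, 11.60, 11.60 and 11.56 in knockout aortas, a change of −0.082 (SE 0.058, 95% confidence interval −0.21 to 0.049, adjusted p 0.457, limma), or −0.050 without wild type replicate 5. Its 4 probe sets were all lower, by −0.082 to −0.47, the largest on a probe set with a mean of 4.61, near the floor. Adam17, the enzyme that releases tumour necrosis factor and ligands of the epidermal growth factor receptor, stood at 10.39, 10.09, 10.09 and 10.13 and at 10.34, 10.27, 10.36, 10.20 and 10.29. Wild type replicate 1 was the high one, and without it the change went from 0.11 (SE 0.076, adjusted p 0.423, limma) to 0.19 (adjusted p 0.084). Adam9, a further sheddase, stood at 11.49 ± 0.08 and 11.44 ± 0.08 (SD, n = 4 and 5), a change of −0.048 (SE 0.062, adjusted p 0.694, limma), or −0.014 without wild type replicate 5.

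Adam33 and Adam19 were the ADAM genes with an unadjusted p under 0.05. Adam33, found in smooth muscle cells and fibroblasts and studied for its link to asthma, stood at 10.02, 9.19, 9.94 and 9.50 in wild type and at 10.01, 10.24, 10.06, 10.22 and 10.22 in knockout aortas. The knockout values lay in a narrow band and the wild type values in a wide range. Knockout replicate 1 was just under the highest wild type value, and the other knockout arrays were above it. The change was 0.49 (SE 0.16, 1.40-fold, adjusted p 0.168, limma). Its second probe set moved the same way by 0.77 (SE 0.20). The lowest value was that of wild type replicate 3, and without that array the change was 0.33 (SE 0.12, adjusted p 0.278). Adam19, a protease that can release neuregulins, stood at 7.79, 8.38, 7.78 and 7.55 and at 8.45, 8.49, 8.40, 8.02 and 8.27. Here wild type replicate 3 was the high one, so the change of 0.45 (SE 0.17, 1.36-fold, adjusted p 0.195, limma) was 0.62 without it (SE 0.12, adjusted p 0.165).

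Adam22 and Adam23 were singled out after their values were seen. These genes, whose proteins lack protease activity and bind LGI proteins at nerve endings, both had their highest value on wild type replicate 3. Adam23 stood there at 11.32, against 9.74 to 10.03 on the other wild type arrays, and at 10.64 and 10.56 on knockout replicates 1 and 4, against 9.56 to 10.00 on the others. Adam22 stood at 10.11 on that array and at 9.42, 8.99 and 9.51 on wild type replicates 1, 4 and 5. On knockout replicates 1 to 5 it stood at 9.28, 8.87, 9.04, 9.20 and 8.98. Its next highest value was on wild type replicate 5, where the mean of the neuron markers was lowest (4.66). Its highest knockout value was on replicate 1, where that mean was highest among the knockout arrays (8.76). Adam22 thus followed the neuron markers only in part. The neuron markers, 15 of 16 on the array, ran in summed level (log2 of the summed linear values) from 10.32 to 14.84 in wild type and from 10.02 to 13.24 in knockout, highest on wild type replicate 3, and the tyrosine hydroxylase gene Th stood at 11.28 there and at 9.18 on knockout replicate 1. Schwann cell markers stood at a mean of 9.48 on wild type replicate 3, and at 8.93 and 8.98 on knockout replicates 1 and 4. The change of Adam23 was −0.11 (SE 0.35, adjusted p 0.885, limma) and turned to 0.25 without wild type replicate 3 (SE 0.25) and to 0.17 with neuron markers as a covariate (SE 0.20). That of Adam22 was −0.43 (SE 0.20, adjusted p 0.259, limma), −0.23 without that array (SE 0.14) and −0.32 with the covariate (SE 0.17). Adam11, also a nerve gene without protease activity, did not share the pattern: it stood at 7.93, 8.14, 8.63 and 8.36 in wild type and at 8.28, 8.15, 8.17, 8.51 and 8.65 in knockout aortas (change 0.086, SE 0.16). Beyond the covariate, the part of nerve tissue in these values was not tested. In RNA of a whole vessel, fewer cells of a type and less RNA per cell cannot be told apart.

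In the ADAMTS family, Adamts5 was higher and Adamts9 lower in the knockout on every tested probe set, though neither passed the threshold. Of 15 members 12 were tested, with 8 changes above 0 and 4 below (median 0.15). Adamts2, the procollagen I N-proteinase, is not among the members on the array and was not analysed here. Adamts5, the main aggrecan-cutting enzyme of the mouse and also a versican protease, stood at 9.63, 9.35, 9.27 and 9.62 on wild type replicates 1, 3, 4 and 5 and at 10.12, 9.89, 10.07, 9.75 and 9.90 on knockout replicates 1 to 5. Every knockout array lay above every wild type array, with a change of 0.48 (SE 0.11, 1.40-fold, 95% confidence interval 0.24 to 0.72, adjusted p 0.110, limma). All 4 probe sets of Adamts5 were higher, by 0.48, 0.53, 0.84 and 0.56. The one at 0.84 stood at 8.64, 8.06, 8.13 and 8.54 against 9.37, 9.07, 9.24, 8.87 and 9.35, again with no overlap, as in 6.42% of all named probe sets (SE 0.15, adjusted p 0.086 over all named probe sets, limma). The change of the gene stayed between 0.41 and 0.54 when any 1 array was left out.

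Adamts9, which also cuts versican, lay in the opposite direction. It stood at 11.14, 11.17, 11.37 and 11.33 in wild type and at 10.98, 10.79, 10.84, 11.06 and 10.87 in knockout aortas, so that the highest knockout value was under the lowest wild type value. The change was −0.35 (SE 0.077, 1.27-fold lower, 95% confidence interval −0.52 to −0.17, adjusted p 0.110, limma). Its probe sets differed in size: one stood at 8.81, 9.92, 10.63 and 10.73 against 8.12, 8.21, 8.28, 9.23 and 8.47, a change of −1.56 (SE 0.39, adjusted p 0.128 over all named probe sets, limma), and another at −0.26 (SE 0.41). Adamts1, another versican protease, stood at 11.37, 12.13, 12.19 and 12.16 and at 10.98, 11.08, 11.54, 11.89 and 11.72. Wild type replicate 1 lay inside the knockout range and the other wild type arrays above it. The change was −0.52 (SE 0.24, 1.43-fold lower, adjusted p 0.262, limma) with all arrays and −0.72 (SE 0.21, adjusted p 0.080) without that array.

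**Figure D4:**
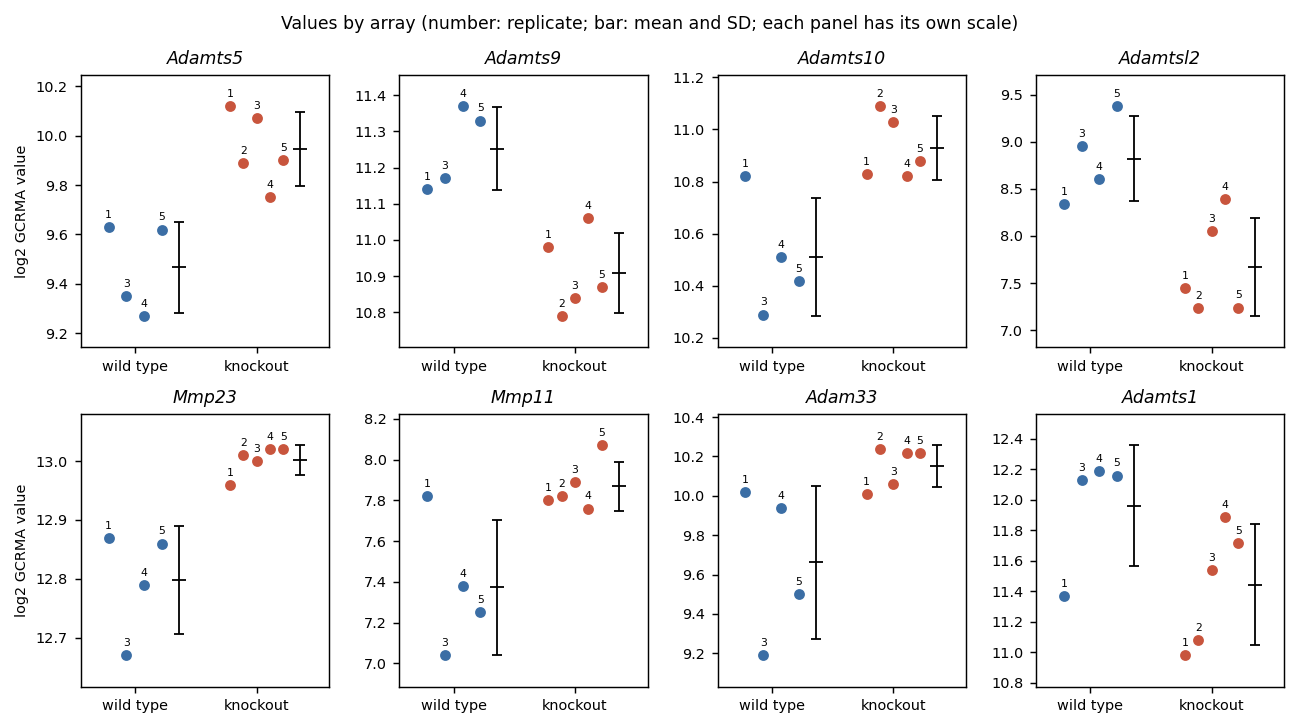
Log2 GCRMA value (y axis, its own scale in each panel) of 8 members on each wild type (blue) and knockout (red) array, with the replicate number above each point and the mean with SD as a bar. Adamts5, Adamts9 and Mmp23 show no overlap between the genotypes, and wild type replicate 1 lies inside or next to the knockout range for Adamts10, Mmp11, Adam33 and Adamts1.

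Of the members tied to fibrillin microfibrils, Adamts10 stood above and Adamtsl2 below its wild type level, neither past the threshold. Adamts10, whose human counterpart is mutated in Weill-Marchesani syndrome and whose protein binds fibrillin, stood at 10.82, 10.29, 10.51 and 10.42 in wild type and at 10.83, 11.09, 11.03, 10.82 and 10.88 in knockout aortas. Only wild type replicate 1 reached the knockout range, and the change was 0.42 (SE 0.11, 1.34-fold, adjusted p 0.135, limma). Adamtsl2, mutated in geleophysic dysplasia and a binding partner of fibrillin and of the TGF-beta carrier LTBP1, stood at 8.34, 8.96, 8.60 and 9.38 and at 7.45, 7.23, 8.05, 8.39 and 7.24. Knockout replicate 4 was the only knockout array within the wild type range, and the change of −1.15 (SE 0.29, 2.22-fold lower, 95% confidence interval −1.81 to −0.48, adjusted p 0.132, limma) was the largest of the tested members, on the single probe set of this gene. With the adipocyte markers as a covariate it was −0.78 (SE 0.28, unadjusted p 0.024, adjusted p 0.499, limma). With that covariate 9.63% of all tested genes had an unadjusted p under 0.05, against 19.9% without it. The smallest adjusted p of any member was then 0.490 (limma). All 10 tested adipocyte markers had changes below 0 (median −0.39), with a summed level of 15.26 to 15.51 in wild type and 14.88 to 15.35 in knockout, and their part in Adamtsl2 was not tested beyond that covariate. Adamtsl2 lies on chromosome 2, as Ptgds does, and the part of sequence linked to the targeted allele in its change was not tested. Adamts6, the close relative of Adamts10, stood at 0.18 (SE 0.093, adjusted p 0.317, limma). Its dimmer probe set went from 3.63, 3.35, 3.49 and 3.02 to 4.67, 4.87, 5.26, 4.13 and 4.30, a change of 1.28 (SE 0.23). All wild type values of that probe set were under the floor, and it passed the filter only through the knockout arrays. Its p is therefore no support for a difference and is not given, and the size of the change is not exact.

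The promoter windows of Adamts1, Adamts9 and Adamtsl2, the 3 genes just described with differences below 0, are given for comparison with the MMP row. They lie at chr16:85803114-85803223 (minus strand), chr6:92943535-92943644 (minus strand) and chr2:27079269-27079378 (plus strand), and are printed on the gene's strand, 110 bases before the start, with any TATAA in capitals.
Adamts1: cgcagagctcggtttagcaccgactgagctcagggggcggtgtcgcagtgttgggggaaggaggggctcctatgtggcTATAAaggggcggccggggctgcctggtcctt
Adamts9: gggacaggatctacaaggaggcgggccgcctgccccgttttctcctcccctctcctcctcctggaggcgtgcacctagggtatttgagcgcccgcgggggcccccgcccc
Adamtsl2: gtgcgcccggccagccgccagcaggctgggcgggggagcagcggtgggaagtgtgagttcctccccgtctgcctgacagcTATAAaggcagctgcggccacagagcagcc
A TATAA begins at −32 in Adamts1 and −30 in Adamtsl2. Adamts9 has none within 60 bases, and the AP-1 letters are in none of the 3 windows of 250 bases, whose G and C content is 65.6%, 71.2% and 62.8%.

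In the remaining ADAMTS and ADAMTS-like genes the groups overlapped. Adamts20, which lay over the floor on 5 of 9 arrays, stood at −0.47 (SE 0.37, adjusted p 0.497, limma), a value that is not exact so near the floor. Adamts8, an aggrecanase of lung and vessel, stood at 7.82 ± 0.26 and 8.13 ± 0.19 (SD, n = 4 and 5), a change of 0.31 (SE 0.14, adjusted p 0.251, limma), which was 0.21 (SE 0.13) without wild type replicate 3. Adamts4, the second aggrecanase, stood at 6.20, 6.40, 6.03 and 6.37 and at 6.46, 6.27, 6.86, 6.41 and 6.15, a change of 0.18 (SE 0.14, adjusted p 0.506, limma). Knockout replicate 3 was the high one, and without it the change was 0.073. With adipocyte markers as a covariate it was 0.36 (SE 0.14, adjusted p 0.503, limma). Adamts15, a further versican protease, stood at 0.26 (SE 0.12, adjusted p 0.262, limma). Of the binding proteins, Adamtsl3 stood at −0.038 (SE 0.11), Adamtsl5 at 0.21 (SE 0.12; 0.14 without wild type replicate 3 or 5), Adamtsl4, which is tied to fibrillin and lens position, at 0.22 (SE 0.11) and Adamtsl1 at −0.13 (SE 0.20), with adjusted p-values from 0.303 to 0.873 (limma).

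**Figure D5:**
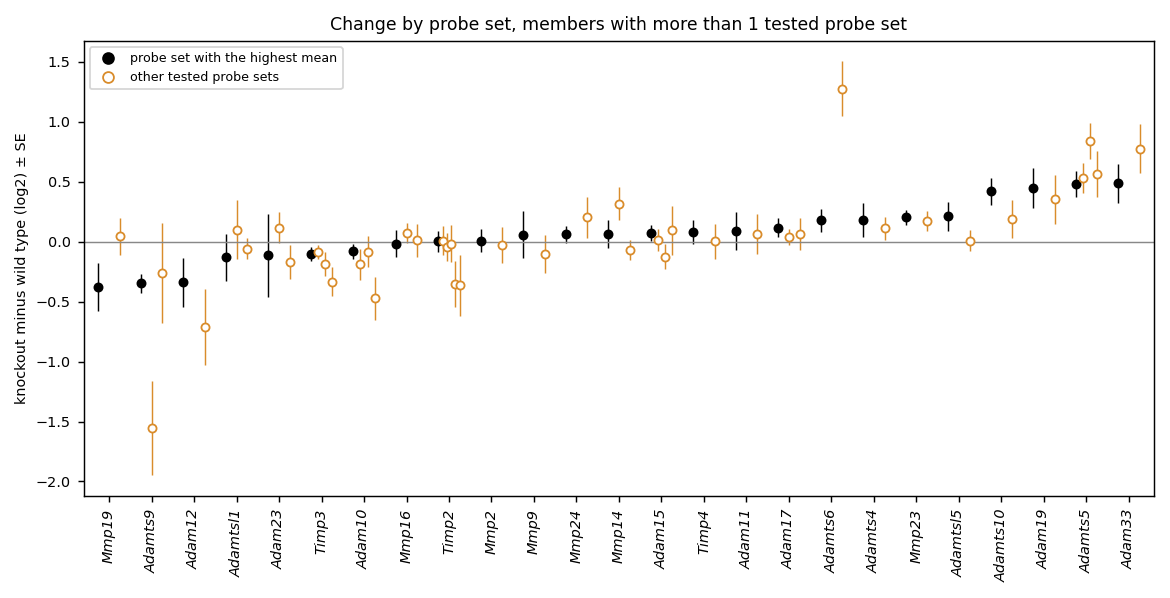
Change as knockout minus wild type (log2, y axis) with SE for every tested probe set of the 25 members that have more than 1 (x axis, ordered by the brightest probe set, black). All 4 probe sets of Adamts5 lie above 0, all 3 of Adamts9 and all 4 of Timp3 and of Adam10 lie below, and Adamts6 and Adamts9 each have one that lies far from the others.

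Over all probe sets of the family, 88 of 124 were tested and 0 passed the threshold (0.0792% of all 26504 named probe sets did). An unadjusted p under 0.05 was found in 19 of these 88, against 5005 of the 26504 (18.9%). The dimmer probe set of Adamts6, which passed the filter only through the knockout arrays, is among the 19. Of the 25 genes with more than 1 tested probe set, 16 had all of them on 1 side of 0, 12 above and 4 below. The same count over all genes was not made.

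Genes that act around these proteases were read from lists chosen by role, and their counts are to be read against all tested genes, of which 19.9% had an unadjusted p under 0.05 (12.8% higher and 7.12% lower), 6.76% had no overlap, and 8122 changes were above 0 and 6199 below. Of 32 activators and regulators, 28 were tested, 0 passed and 1 (3.57%) had an unadjusted p under 0.05: Pcsk6, a proprotein convertase, at −0.39 (SE 0.16, adjusted p 0.220, limma). The urokinase receptor gene Plaur stood at −0.37 (SE 0.17) and the serine protease gene Prss23 at −0.26 (SE 0.12). Of 37 other matrix proteases and inhibitors, 30 were tested, 0 passed and 5 (16.7%) had an unadjusted p under 0.05, 4 above 0 and 1 below. Pappa2, which cuts binding proteins of insulin-like growth factor, stood at 0.48 (SE 0.13, adjusted p 0.136, limma), the neprilysin gene Mme at −0.47 (SE 0.15, adjusted p 0.164, limma), with no overlap between the groups, and Wfikkn1, a secreted protein with protease inhibitor domains, at 0.35 (SE 0.13).

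Among the substrates no gene passed the threshold. Of 33 tested matrix substrates 12 were above 0 and 21 below (median −0.062), 0 passed and 3 (9.09%) had an unadjusted p under 0.05: the thrombospondin gene Thbs1 at −1.07 (SE 0.35), the elastin gene Eln at 0.25 (SE 0.11) and Col5a1, a chain of fibril-forming collagen V, at 0.21 (SE 0.090), with adjusted p-values of 0.164 to 0.241 (limma). Of 32 tested proteins that ADAM10 or ADAM17 can shed, 12 were above 0 and 20 below (median −0.044), 0 passed and 8 (25%) had an unadjusted p under 0.05, 2 above and 6 below. The groups did not overlap in 5 (15.6%, against 6.76% of all tested genes), 2 above 0 and 3 below, with Tnfrsf1b and Met among them. The tumour necrosis factor receptor gene Tnfrsf1b stood at 7.68, 7.68, 7.70 and 7.91 in wild type and at 7.49, 7.41, 7.49, 7.43 and 7.50 in knockout aortas, with no overlap and a change of −0.28 (SE 0.063, adjusted p 0.111, limma). Met, the receptor of hepatocyte growth factor, stood at −0.45 (SE 0.11, adjusted p 0.127, limma) and the endothelial cadherin gene Cdh5 at −0.34 (SE 0.090, adjusted p 0.135, limma). Endothelial markers, with Cdh5 itself among them, were below 0 in 9 of 11 tested genes (summed level 12.80 to 13.45 in wild type, 12.70 to 13.20 in knockout). Macrophage markers were below 0 in 12 of 12 (13.40 to 14.32 and 13.62 to 13.81). Smooth muscle markers were above 0 in 7 of 10 (16.00 to 16.16 and 16.15 to 16.20). The part of these cells in these values was not tested.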

How the data were processed

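RNA of aortas from 4 wild type and 5 Ptgds-/- male mice was read on 1-colour Affymetrix arrays of 45101 probe sets. GCRMA, named in the submitters' processing notes, gave the deposited log2 values: the authors' step corrects background, normalizes across arrays and leaves 1 value per probe set, as deposited. That they are log2 was read from their range, since the scale is not stated in the sources used here. The column of wild type replicate 2 is empty, so 1 sample column was not used. The number of arrays limits the precision. GCRMA pulls dim probe sets to a common background, which gives repeated values near the lower end and makes small levels inexact.

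Only the 34945 probe sets that GEO's platform annotation gives a single symbol were used (932 have several, 9224 none or no entry). Those over a log2 value of 4 on at least 4 arrays were tested, and the brightest stood for a gene (14321 genes). The genotypes were compared by limma (version 3.58.1, R 4.3.3; lmFit and eBayes with no covariate), adjusted by Benjamini-Hochberg over all genes at 0.05, and single values by exact permutation over 126 splits. Probe sets were also fitted as such (26504). The procedure was tested on simulated data. The members and lists were chosen with earlier results of these data known.

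Named with full values were the 10 members with the smallest p, the 2 brightest of each family (all TIMP genes) and Mmp2, Mmp3, Mmp9, Mmp12, Mmp14, Adam10, Adam17, Adamts1, Adamts4 and Adamts5 (Adamts2, in the same rule, is no member); of each list of further genes, the 3 with the smallest p. Other members are named for a range, a level under the floor or a disagreement of probe sets; Adam11, Adam22 and Adam23 were singled out after their values were seen. Alternatives were other normalization and centring, no floor or one of 6, the median of probe sets, other variance models, array weights, marker covariates, a replicate block, a threshold of 0.10 and leaving out each array. Promoter windows are from RefSeq (GRCm38.p6); the array values name no build.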

Additional observations from a re-analysis of the deposited data

Results flagged for a closer look

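In 52 groups of arrays of the named members (26 genes, 2 genotypes), 4 had 1 array farther from the rest than Dixon's 95% limit allows; chance flags about 1 in 20 groups. Adamts1 stood at 11.37 on wild type replicate 1, where the other wild type arrays lay between 12.13 and 12.19. Adam17 stood at 10.39 on the same array, against 10.09 to 10.13. Adam10 stood at 11.46 on knockout replicate 2, against 11.56 to 11.60. Mmp12 stood at 2.27 on knockout replicate 1, against 2.48 to 2.51, all under the floor.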

How the results depend on the processing

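Over the alternatives, 443 values of the named members' changes kept their direction and side of the threshold, 26 turned in direction and 5 passed the threshold, the last all without wild type replicate 1. Mmp9 has no value with a floor of 6, which leaves it untested. All genes past the threshold numbered 8 in the fit of the report, 19 with a floor of 6, 33 with limma's trend and robust options, 73 with array weights, 2 with adipocyte markers as a covariate, 86 at an adjusted p of 0.10, and 2 to 1051 when 1 array was left out. Members past the threshold numbered 0 to 5 when 1 array was left out, the 5 without wild type replicate 1. Members were split 26 higher and 19 lower, and 22 and 23 with array weights, either marker covariate or without wild type replicate 3, 21 and 24 without knockout replicate 5, and 28 and 17 with the replicate block or without knockout replicate 2. The number of arrays, and signals near the floor, limit what could be told.

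Among the members named with full values, the changes that turned sign were all small with all arrays. Adam23, outside that set, also turned, as given above. Leaving out 1 array gave −0.056 to 0.085 for Mmp2, −0.080 to 0.28 for Mmp9, −0.010 to 0.14 for Mmp14, −0.036 to 0.061 for Timp2, −0.044 to 0.28 for Timp1 and −0.13 to 0.017 for Adamtsl3. The median of a gene's probe sets gave −0.010 for Mmp2, −0.024 for Mmp9 and −0.032 for Timp2. Array weights gave −0.0025 for Mmp2 and −0.067 for Mmp9. Neuron markers as a covariate gave −0.027 for Mmp2, −0.017 for Mmp9, −0.029 for Timp1 and −0.011 for Timp2, and adipocyte markers −0.019 for Mmp14. The cause was not tested.

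With the replicate number as a block (4 shared numbers), 0 genes passed, Timp2 stood at −0.0076, 12 members had an unadjusted p under 0.05 and the smallest adjusted p of a member was 0.357 (limma). Same-numbered arrays' deviations from their group means correlated at −0.36, −0.15, 0.060 and 0.21, and 1 of 4 wild type arrays correlated best with its own number. These 4 pairs are too few to tell whether same-numbered arrays share more than a number, and the labels do not say.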
